A study of Homo sapiens with 6 samples.

Results

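Antisense RNA genes are genes transcribed from the strand opposite a neighbouring gene and named after it with the ending -AS1. The deposited table of NCI-H1299 cells lists 643 genes whose name ends in -AS1, among 26025 genes in all. The 195 of them whose values averaged 20 or more normalized counts over the 6 libraries were kept, and each was set beside its partner, the gene of the same name without -AS1. The mean level over both groups chose these genes, so their levels are given as a description, and the tests concern the difference between the groups and the ratio of antisense gene to partner. A gene could pass through the group where it was high, and its test is then not independent of the choice.

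NCI-H1299 is an established human line of non-small cell lung cancer. The 3 Ctrl and the 3 NE libraries came from this one line. All the cells were starved in DMEM for 8 to 12 h and then kept for 48 h in RPMI-1640 with 2% serum. The NE cells received 10 µM norepinephrine in those 48 h, and the Ctrl cells received vehicle, which the labels name as DMSO in one place and as PBS in another. The study asked how the stress mediator norepinephrine acts on lung cancer cells, and no label says whether the libraries of a group came from separate cultures, so the p-values below measure only the spread between these samples.

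Norepinephrine is a ligand of adrenergic receptors, and the beta receptors raise cyclic AMP, which activates the transcription factor CREB. An antisense RNA gene may share exons with its partner, lie within an intron of it, or start beside it and run the other way from a common promoter region. Some antisense RNAs are known to act on their partner's transcription or RNA stability, and many have no known role. HHIP-AS1, for example, lies opposite HHIP, which encodes a decoy of Hedgehog ligands, and OIP5-AS1 is a conserved long RNA that binds microRNAs and RNA-binding proteins.

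The sequences below show 4 promoter windows that hold the RefSeq start of both the antisense gene and its partner. They come from 2 pairs whose genes moved in the same direction and 2 whose ratio moved. RefSeq promoters of GRCh38.p14, from 250 bases before to 50 bases after the annotated start, were matched by name for 153 of the 195 antisense genes. Each is printed 5′ to 3′ on the strand of the antisense gene, in lower case, with matches to the CREB site TGACGTCA or to its short form TGACG, searched for on both strands, in capitals. The windows are chr4:144645970-144646269 on the minus strand for HHIP-AS1, chr3:149377528-149377827 on the plus strand for TM4SF1-AS1, chr5:78360492-78360791 on the minus strand for SCAMP1-AS1 and chr11:83071816-83072115 on the plus strand for RAB30-AS1, which RefSeq lists as RAB30-DT.
HHIP-AS1: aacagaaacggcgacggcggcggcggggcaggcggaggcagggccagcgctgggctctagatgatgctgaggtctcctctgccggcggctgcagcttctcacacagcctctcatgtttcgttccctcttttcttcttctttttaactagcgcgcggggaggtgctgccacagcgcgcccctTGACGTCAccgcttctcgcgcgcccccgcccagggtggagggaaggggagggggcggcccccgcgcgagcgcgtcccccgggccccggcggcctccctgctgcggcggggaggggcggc
TM4SF1-AS1: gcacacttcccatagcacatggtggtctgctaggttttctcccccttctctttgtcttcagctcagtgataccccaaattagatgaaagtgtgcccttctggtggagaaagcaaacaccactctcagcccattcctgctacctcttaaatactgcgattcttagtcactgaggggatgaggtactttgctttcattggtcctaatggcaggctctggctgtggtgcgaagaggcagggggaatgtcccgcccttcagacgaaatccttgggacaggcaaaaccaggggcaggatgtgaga
SCAMP1-AS1: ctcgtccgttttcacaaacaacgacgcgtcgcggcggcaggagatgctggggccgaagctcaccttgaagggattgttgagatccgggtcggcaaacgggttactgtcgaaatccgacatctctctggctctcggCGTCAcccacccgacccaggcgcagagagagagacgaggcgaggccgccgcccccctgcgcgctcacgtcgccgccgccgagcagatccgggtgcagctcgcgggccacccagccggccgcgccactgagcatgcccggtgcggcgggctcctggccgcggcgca
RAB30-AS1: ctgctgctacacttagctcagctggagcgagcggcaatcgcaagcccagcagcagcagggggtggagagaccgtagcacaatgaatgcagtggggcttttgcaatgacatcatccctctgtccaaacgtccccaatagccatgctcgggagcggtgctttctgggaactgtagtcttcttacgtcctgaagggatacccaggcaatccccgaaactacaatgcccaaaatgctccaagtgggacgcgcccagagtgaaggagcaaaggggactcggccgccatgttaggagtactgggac

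In the HHIP-AS1 window the whole TGACGTCA site was present, and the RefSeq start of HHIP lay 137 bases before that of HHIP-AS1. The annotation GENCODE v44 instead places the outermost starts of these 2 genes 15201 bases apart, with overlapping gene bodies. Whether HHIP-AS1 RNA in these cells began in this window was not tested. The SCAMP1-AS1 window held 1 short site, and the windows of TM4SF1-AS1 and RAB30-AS1 held none. The partner start lay 129 bases before the TM4SF1-AS1 start, 76 bases before the SCAMP1-AS1 start and 169 bases before the RAB30-AS1 start. Over the matched antisense genes, TGACGTCA was found in 5 windows (3.27%), against 1.98% of 27305 promoters of the same length. The short site, which is part of the whole site, was found in 52 windows (34.0%) against 25.01% of all promoters. The E-box CACGTG, the motif bound by CLOCK and related factors, was found in 17 windows (11.1%) against 7.44%. Of the genes called with NE below, 11 rises and 7 falls had a window. TGACGTCA was in 0 of these rises and 1 of these falls, which is HHIP-AS1. The short site was in 3 rises (27.3%) and 3 falls (42.9%), and the E-box in 2 rises and 0 falls. These matches describe letters in the windows and are no record of binding.

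Each library held between 16852751 and 17979206 recovered reads on genes. Ctrl 3 stood apart, with 7305 genes at 0 against 3954 to 4833 in the other 5 libraries, and results that rest on it are given without it. The antisense genes took 0.153% to 0.166% of the reads in Ctrl and 0.168% to 0.188% in NE. Of the markers of the line, KRT8, KRT18 and VIM had means of 5907 or more normalized counts in both groups. EPCAM, CDH1, NKX2-1 and NAPSA were at most 5.71 in either group mean. The hepatocyte gene ALB was near 0, PECAM1 of endothelium was at 26.7 in Ctrl and 26.5 in NE, and COL1A1 of fibroblasts was at 23.5 and 9.20.

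Most of the antisense genes were low. Their means ran from 20.2 to 4011 normalized counts with a median of 61.0, against 371.0 for all 15013 genes tested. Of the 195, 83 had a mean under 50 and 6 had a mean of at least 500. The genes just inside the limit were HOXC-AS1 at 20.2, B4GALT1-AS1 at 20.7 and BVES-AS1 at 20.7, and those just outside were PPP1R12A-AS1 at 19.8, GATA2-AS1 at 19.7 and SATB1-AS1 at 19.6. In 11 genes the Ctrl mean was under 20, so they were kept through their NE level, and in another 11 the NE mean was under 20. The other 448 genes named -AS1 were below the limit.

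The 5 antisense genes of highest mean were OIP5-AS1, LRRC75A-AS1, FGD5-AS1, TP73-AS1 and NUTM2A-AS1. OIP5-AS1 had 2552, 2715 and 3687 normalized counts in Ctrl and 5802, 4655 and 4657 in NE, so every NE library lay above every Ctrl library. Its log2 fold change was 0.77 ± 0.16 (SE, n = 3 per group, adjusted p = 0.0033), under the limit of 1 on the log2 scale that a call needed here. LRRC75A-AS1, a host of small nucleolar RNAs also called SNHG29, had 4617, 4513 and 5044 in Ctrl and 2928, 3312 and 3234 in NE. All its NE libraries lay below Ctrl, with a log2 fold change of -0.58 ± 0.10 (adjusted p = 0.00147), also under the limit. FGD5-AS1 had 2398, 2492 and 3353 in Ctrl and 3513, 3462 and 3560 in NE. The groups did not overlap, and the log2 fold change was 0.37 ± 0.13 (adjusted p = 0.044).

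TP73-AS1, annotated as a transcribed pseudogene, had 989, 1008 and 952 normalized counts in Ctrl and 697, 828 and 731 in NE, a log2 fold change of -0.39 ± 0.11 (adjusted p = 0.0175). The groups did not overlap, but after removal of each library's trend on exon GC content the log2 fold change was 0.01. NUTM2A-AS1 had 545, 562 and 522 in Ctrl and 542, 507 and 433 in NE, and its groups overlapped, with a log2 fold change of -0.14 ± 0.13 (adjusted p = 0.373). It has a near-identical copy, NUTM2B-AS1, so its reads are uncertain.

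With NE, 16 of the 195 antisense genes rose and 12 fell, with a call set at an adjusted p under 0.05 by limma and a log2 fold change of 1 or more in either direction. These are 8.21% and 6.15% of the antisense genes, against a background of 7.47% and 6.55% among all genes tested, and 7.88% and 5.89% among the 1460 tested genes annotated as long noncoding RNA. The shares called were thus close to those of other genes in both directions. The median log2 fold change was 0.00 over the antisense genes and 0.01 over all genes tested. By the adjusted p alone, 28 rose and 28 fell (14.4% each), against 24.6% and 25.5% of all genes tested and 12.1% and 10.6% of the long noncoding RNA genes. Of the 16 rises, 7 had a Ctrl mean under 20, and of the 12 falls, 5 had an NE mean under 20, so these 12 genes were in the set through the group where they were high. The rises among them include RNF139-AS1, STARD4-AS1, SOCS2-AS1, GNG12-AS1, MAP3K14-AS1 and SAP30L-AS1. The falls among them are HHIP-AS1, FUT8-AS1, TNRC6C-AS1, HOXC-AS1 and YTHDF3-AS1. For these 12 the test is not independent of how they were chosen. Among the 173 antisense genes with both group means at 20 or more, 9 rose and 7 fell (5.20% and 4.05%). The background shares above were not taken at this limit, and no share of all genes at it was computed. Each value is a share of its library's reads, so less RNA per cell and fewer cells of one kind cannot be told apart.

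The share passing the adjusted p moved with the level. It was 24.1% of the 83 antisense genes with a mean under 50, and 24.1% of all genes in that range. It was 21.7% of the 60 with a mean from 50 to under 100, against 32.9% of all genes there, and 44.2% of the 52 at 100 or more, against 61.4%. In 41 antisense genes all NE libraries lay above all Ctrl libraries and in 37 all lay below, against 29.7% and 28.9% of all genes tested, or 21.0% and 19.0% of the antisense genes. Without Ctrl 3, 13 rose and 17 fell, and without NE 2, 10 rose and 8 fell. Without Ctrl 2, 15 rose and 7 fell.

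GC content moved with the result. Across 194 antisense genes with an annotated position, the Spearman correlation of the log2 fold change with exon GC content was -0.41, and across all genes tested it was -0.64. These are descriptions across genes of the same 6 libraries. After each library's GC trend was removed, 9 of the 16 rises and 5 of the 12 falls were still called, and 3 other antisense genes were called lower. TNRC6C-AS1, one of the 12 falls, has no annotated position and could not be corrected. None of the other called genes changed sign.

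**Figure D1:**
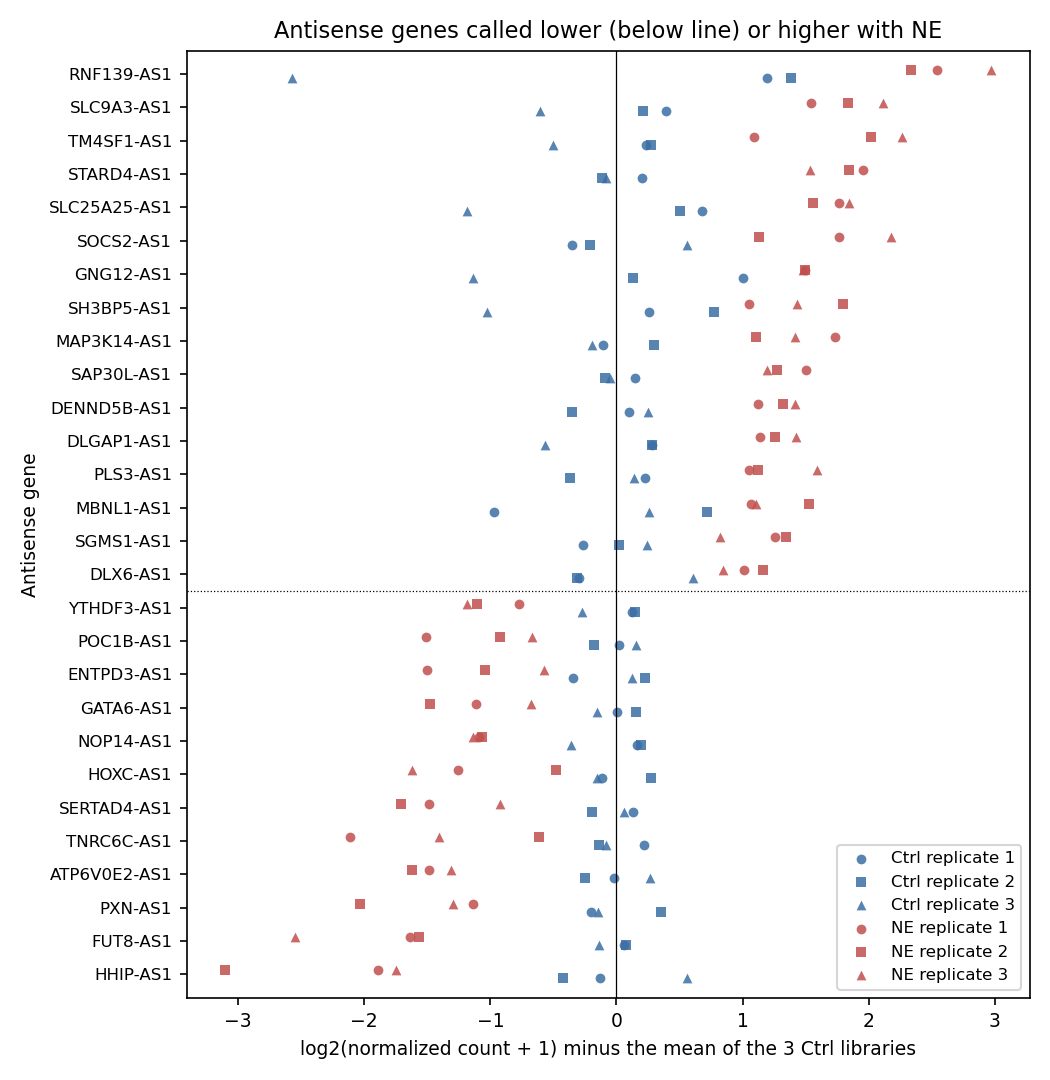
The 28 antisense genes called with NE, on the log2(normalized count + 1) scale relative to the mean of the 3 Ctrl libraries; each mark is 1 library, blue for Ctrl and red for NE. In each row the 3 NE marks lie on one side of the 3 Ctrl marks, and Ctrl 3 (blue triangle) is far to the left in RNF139-AS1, SLC25A25-AS1, GNG12-AS1 and SH3BP5-AS1.

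The rises were led by RNF139-AS1, which lies beside the gene of the ubiquitin ligase RNF139 of the endoplasmic reticulum. It had 12.6, 14.5 and 0 normalized counts in Ctrl and 33.6, 29.1 and 45.7 in NE, so the groups did not overlap. The log2 fold change of 2.62 ± 0.94 (adjusted p = 0.0429) rests on the 0 in Ctrl 3. It was 1.33 without that library, and the call was lost when any single NE library was left out, with a pseudocount of 0.5 and after the GC correction.

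SLC9A3-AS1 lies opposite SLC9A3, a sodium and proton exchanger. It had 57.6, 50.8 and 28.4 normalized counts in Ctrl and 129, 159 and 193 in NE. All NE libraries were higher, with a log2 fold change of 1.83 ± 0.29 (adjusted p = 0.000996). TM4SF1-AS1, beside the membrane protein gene TM4SF1, had 25.1, 25.9 and 14.7 in Ctrl and 46.4, 89.1 and 106 in NE. NE 1 was the lowest of the treated libraries but lay above every Ctrl library, and the log2 fold change was 1.79 ± 0.37 (adjusted p = 0.0038). STARD4-AS1, opposite the gene of the sterol transporter STARD4, had 15.7, 12.4 and 12.7 in Ctrl and 55.3, 51.3 and 41.1 in NE. The spread within each group was small beside the log2 fold change of 1.78 ± 0.31 (adjusted p = 0.00156).

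SLC25A25-AS1 is the antisense gene of a mitochondrial carrier of ATP and magnesium. It had 59.7, 52.9 and 15.7 normalized counts in Ctrl and 127, 110 and 135 in NE. Ctrl 3 was far below the other Ctrl libraries, and the log2 fold change of 1.72 ± 0.44 (adjusted p = 0.0101) was 1.13 without it. SOCS2-AS1 is the antisense gene of a suppressor of cytokine signalling. It had 8.38, 9.33 and 16.7 in Ctrl and 39.5, 25.2 and 53.0 in NE. The groups were apart, with a log2 fold change of 1.69 ± 0.42 (adjusted p = 0.00921), and the call was lost at 1.45 without NE 3.

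GNG12-AS1, whose partner encodes a G protein gamma subunit, had 29.3, 15.6 and 5.88 normalized counts in Ctrl and 41.5, 41.6 and 41.1 in NE. SH3BP5-AS1 had 23.0, 33.2 and 8.82 in Ctrl and 40.5, 68.8 and 53.0 in NE. In both the groups did not overlap but Ctrl varied widely. Their log2 fold changes were 1.49 ± 0.51 (adjusted p = 0.0346) for GNG12-AS1 and 1.43 ± 0.46 (adjusted p = 0.0288) for SH3BP5-AS1. Without Ctrl 3 they were 0.92 and 0.91 and were no longer called, and both calls were also lost without any single NE library, after the GC correction and, for GNG12-AS1, without Ctrl 2, with no filter on the mean and by edgeR (1.28).

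MAP3K14-AS1 lies opposite MAP3K14, the kinase NIK of the noncanonical NF-kappaB pathway. It had 17.8, 23.9 and 16.7 normalized counts in Ctrl and 66.2, 42.6 and 53.0 in NE. Every NE library lay farther above Ctrl than the Ctrl libraries lay from each other, and the log2 fold change was 1.42 ± 0.31 (adjusted p = 0.00443). SAP30L-AS1, beside the gene of a Sin3 deacetylase complex protein, had 13.6, 11.4 and 11.8 in Ctrl and 36.6, 31.0 and 29.2 in NE. Its groups were narrow and apart, with a log2 fold change of 1.32 ± 0.34 (adjusted p = 0.00984). The other 6 rises were between 1.007 and 1.29 on the log2 scale, and they are named here to complete the list. They were DENND5B-AS1, DLGAP1-AS1 (1.27 ± 0.23, adjusted p = 0.00187), PLS3-AS1, MBNL1-AS1, SGMS1-AS1 and DLX6-AS1. Without Ctrl 3 the value of DLGAP1-AS1 was 0.99, under the limit of a call. Calls were also lost for DLX6-AS1 without Ctrl 1 (0.86), Ctrl 2 (0.85), NE 1 (1.005) or NE 2 (0.93), for MBNL1-AS1 without Ctrl 1 (0.75) or any NE library (1.09 to 1.32), and for PLS3-AS1 without Ctrl 2 (1.07), NE 2 (1.32) or NE 3 (1.09). DLX6-AS1 was also not called by DESeq2 (0.96), edgeR (0.94) or voom (0.99). After the GC correction DLX6-AS1 (0.40), MBNL1-AS1 (0.61), PLS3-AS1 (0.80) and SGMS1-AS1 (0.75) were not called.

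HHIP-AS1 fell most. It had 52.4, 42.5 and 85.3 normalized counts in Ctrl and 14.8, 5.81 and 16.4 in NE, and its log2 fold change was -2.24 ± 0.45 (adjusted p = 0.0031). FUT8-AS1, opposite the gene of the core fucosyltransferase of N-glycans, had 43.98, 44.6 and 38.2 in Ctrl and 12.8, 13.6 and 6.40 in NE. The Ctrl libraries were close together and all NE libraries were lower, with a log2 fold change of -1.92 ± 0.38 (adjusted p = 0.00305). PXN-AS1 is the antisense gene of paxillin, an adaptor of focal adhesions. It had 57.6, 85.03 and 59.8 in Ctrl and 29.6, 15.5 and 26.5 in NE. The groups did not overlap, and the log2 fold change was -1.49 ± 0.32 (adjusted p = 0.00462).

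ATP6V0E2-AS1, opposite a gene of the vacuolar proton pump, had 75.4, 64.3 and 92.1 normalized counts in Ctrl and 26.7, 24.2 and 30.2 in NE. SERTAD4-AS1 had 162, 130 and 155 in Ctrl and 52.4, 44.6 and 77.7 in NE. NOP14-AS1, opposite a gene of ribosome assembly, had 774, 790 and 539 in Ctrl and 324, 329 and 313 in NE. All 3 fell in every NE library, with log2 fold changes of -1.47 ± 0.25 (adjusted p = 0.00149), -1.37 ± 0.24 (adjusted p = 0.0016) and -1.10 ± 0.16 (adjusted p = 0.000717) in that order. After the GC correction they were -0.95, -0.94 and -0.72, lower than Ctrl but under the limit of a call.

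The remaining 4 of the 10 largest falls follow. TNRC6C-AS1, whose partner encodes a protein of microRNA silencing, had 38.7, 30.1 and 31.4 normalized counts in Ctrl and 6.92, 21.3 and 11.9 in NE. Its log2 fold change was -1.38 ± 0.44 (adjusted p = 0.0263). HOXC-AS1, of the HOXC cluster, had 25.1, 33.2 and 24.5 in Ctrl and 10.9, 19.4 and 8.22 in NE, a log2 fold change of -1.12 ± 0.42 (adjusted p = 0.0492). In both, NE 2 was the highest treated library but lay below Ctrl. GATA6-AS1, beside the gene of the transcription factor GATA6, had 50.3, 56.0 and 45.1 in Ctrl and 22.7, 17.4 and 31.1 in NE, a log2 fold change of -1.09 ± 0.30 (adjusted p = 0.0151). ENTPD3-AS1, whose partner encodes an enzyme that cleaves extracellular nucleotides, had 42.9, 64.3 and 59.8 in Ctrl and 18.8, 26.2 and 36.6 in NE, a log2 fold change of -1.04 ± 0.32 (adjusted p = 0.0241).

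These 4 calls were lost in several fits. TNRC6C-AS1 lost its call without Ctrl 1 (-1.27), Ctrl 2 (-1.45), NE 1 (-1.01) or NE 3 (-1.36), and HOXC-AS1 without Ctrl 1 (-1.18), Ctrl 2 (-0.98), NE 1 (-1.05) or NE 3 (-0.87). GATA6-AS1 lost it without Ctrl 2 (-1.01) or NE 2 (-0.89). HOXC-AS1 and GATA6-AS1 were at -0.60 and -0.62 after the GC correction and were not called. HOXC-AS1 was also not called by edgeR (-1.11) or DESeq2 (-1.11) on the recovered reads. ENTPD3-AS1 lost it without Ctrl 2 (-0.93), Ctrl 3 (-0.98), NE 1 (-0.81) or NE 2 (-1.04). With a pseudocount of 5, HOXC-AS1, GATA6-AS1 and ENTPD3-AS1 were at -0.91, -0.97 and -0.94 and were not called. With no filter on the mean the values stood, but HOXC-AS1, TNRC6C-AS1 and ENTPD3-AS1 did not pass the adjusted p. The last falls, named to complete the list, were POC1B-AS1 at -1.03 ± 0.33 (adjusted p = 0.0266) and YTHDF3-AS1. POC1B-AS1 lost its call without any single library but NE 3, at -0.79 to -1.12.

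Of the 195 antisense genes, 191 had a partner in the table. ADIRF-AS1, HOXB-AS1, HOXC-AS1 and RPARP-AS1 had none. Of the 191 partners, 173 reached a mean of 10 and were tested, and 15 rose and 11 fell with NE (8.67% and 6.36%, against the same background of 7.47% and 6.55%). Their median log2 fold change was 0.07. By the adjusted p alone 55 partners rose and 53 fell (31.8% and 30.6%), against 24.6% and 25.5% of all genes tested. Without Ctrl 3, 23 partners rose and 14 fell, and after the GC correction 9 rose and 4 fell.

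In 7 pairs both genes were called. They were higher together in 3 (TM4SF1, SOCS2 and DENND5B), lower together in 3 (HHIP, PXN and GATA6), and opposite in 1 (MAP3K14). By the adjusted p alone, both genes rose in 13 pairs and fell in 14, the antisense gene rose where the partner fell in 2, and it fell where the partner rose in 4. The partner alone passed in 75 pairs, 38 higher and 37 lower, the antisense gene alone in 15, and neither in 50. By the same adjusted p, 14.4% of all the antisense genes rose and 14.4% fell, and 31.8% of the tested partners rose and 30.6% fell. How often unrelated genes moved together was not computed, so these counts do not show more agreement than other genes have. The Spearman correlation of the log2 fold changes of the 2 genes was 0.27 across the 173 pairs. It was 0.35 in the 121 pairs that share exon bases, 0.17 in 20 whose bodies overlap without them, and 0.16 in 27 whose starts lie within 1 kb. The 2 genes of a pair were measured in the same 6 libraries, so these values are descriptions. They were not computed for unrelated pairs or after the GC correction, although the log2 fold change moved with exon GC content over all genes tested.

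**Figure D2:**
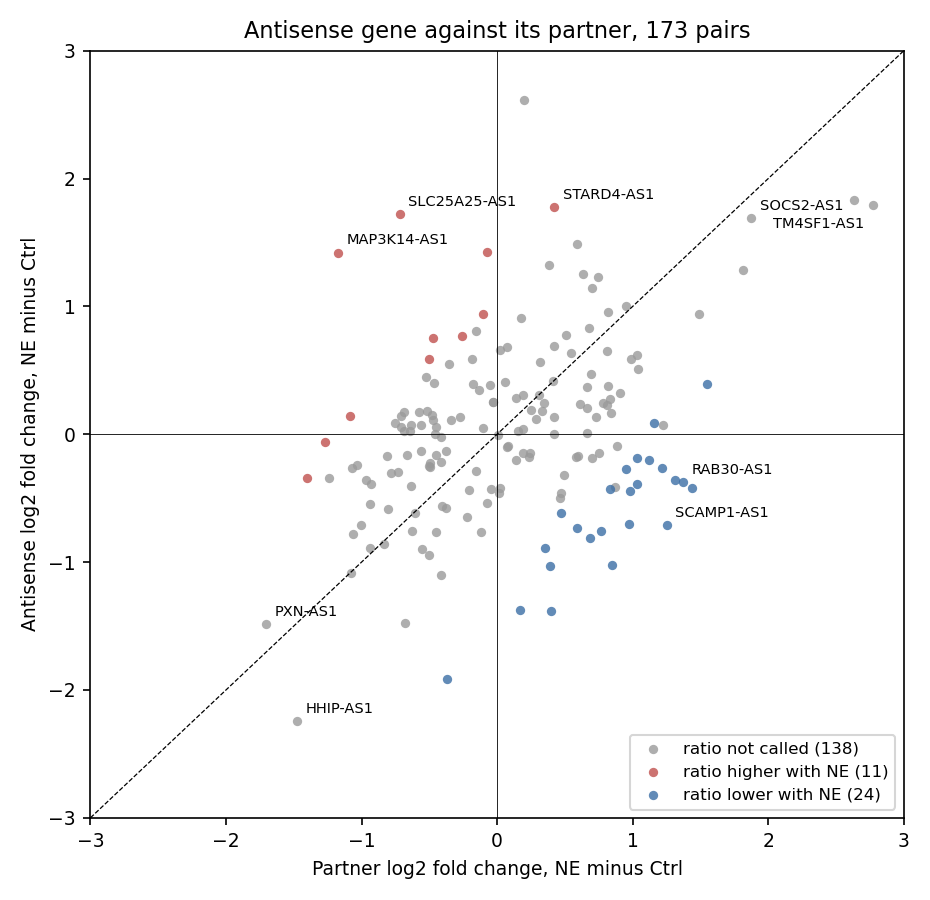
Log2 fold change (NE minus Ctrl) of the partner on the horizontal axis and of the antisense gene on the vertical axis for 173 pairs, each point 1 pair, with the line of equal change dashed. Red and blue points are the 11 pairs whose antisense to partner ratio was called higher and the 24 called lower, and these lie away from the line, while TM4SF1-AS1, SOCS2-AS1, PXN-AS1 and HHIP-AS1 lie in the corners where both genes moved the same way.

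TM4SF1 had the highest rise of the 173 partners. It had 8330, 8674 and 11703 normalized counts in Ctrl and 60232, 65248 and 68709 in NE, a log2 fold change of 2.77 ± 0.14 (adjusted p = 4.56e-06). TM4SF1-AS1, on chromosome 3 from 149377778 to 149386583 on the plus strand of hg38, shares no exon base with it, and the starts in GENCODE v44 are 86 bases apart. Both genes rose, and their ratio differed by -0.98 ± 0.42 on the log2 scale (adjusted p = 0.0781), which was not called. SOCS2 had 156, 133 and 136 in Ctrl and 536, 514 and 514 in NE, a log2 fold change of 1.88 ± 0.13 (adjusted p = 3.52e-05). The log2 ratio of SOCS2-AS1 to SOCS2 differed by -0.19, with a 95% interval from -1.21 to 0.83, so at these counts a change of the ratio was not detectable.

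DENND5B, whose protein activates Rab GTPases, had 709, 759 and 911 normalized counts in Ctrl and 2952, 2667 and 2727 in NE, a log2 fold change of 1.82 ± 0.12 (adjusted p = 2.39e-05). DENND5B-AS1 had 59.7, 43.6 and 66.6 in Ctrl and 123, 140 and 151 in NE, a log2 fold change of 1.29 ± 0.22 (adjusted p = 0.00142). The pair shares no exon base, and both genes were higher in every NE library. However, 38.8% of the exon bases of DENND5B-AS1 are also exon bases of another gene on the opposite strand. Reads from those bases cannot be assigned to one strand or the other.

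HHIP had 43.98, 66.4 and 54.9 normalized counts in Ctrl and 31.6, 16.5 and 12.8 in NE, a log2 fold change of -1.48 ± 0.38 (adjusted p = 0.00986). HHIP-AS1 lies on chromosome 4 from 144642919 to 144661357 on the minus strand, and 34.0% of its exon bases are also exon bases of HHIP. The kit named in the labels is not described there as stranded, and how reads over 2 genes were assigned is not given in the sources used here. Reads from such shared bases cannot be assigned to one strand or the other. PXN had 8914, 8508 and 7141 in Ctrl and 2577, 2494 and 2449 in NE, a log2 fold change of -1.70 ± 0.11 (adjusted p = 2.02e-05), and 37.8% of the exon bases of PXN-AS1 are shared with it.

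GATA6 had 584, 635 and 823 normalized counts in Ctrl and 341, 266 and 356 in NE, a log2 fold change of -1.08 ± 0.17 (adjusted p = 0.00101). GATA6-AS1 shares 2.86% of its exon bases with it. The log2 ratio of the pair differed by -0.01 ± 0.33 (95% interval -0.74 to 0.72). Both genes of this pair fell in every NE library.

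On the ratio of antisense gene to partner, 11 of the 173 pairs were called higher with NE and 24 lower. These are 6.36% and 13.9% of the pairs, against a background of 4.68% and 11.7% among all 299 pairs that could be formed by name, which include these. More ratios fell than rose in both sets. In 35 pairs the 3 NE ratios all lay above the Ctrl ratios and in 40 all lay below (18.1% and 21.7% in the background, 20.2% and 23.1% here). The median difference over the 173 pairs was -0.02 on the log2 scale. Without Ctrl 3, 16 ratios were higher and 36 lower, without NE 1, 7 and 13, and without NE 2, 6 and 17. Without Ctrl 2, 12 were higher and 16 lower. After the GC correction 7 were higher and 14 lower, of which 6 and 9 were among the 35.

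Where the ratio was lower, it was mostly the partner that passed the test. In the 24 pairs the partner rose by the adjusted p alone in 17 and the antisense gene fell in 8, with both in 4 and neither in 3. In the 11 pairs with a higher ratio the antisense gene rose in 6 and the partner fell in 6, with both in 2 and neither in 1. In all 11, and in 23 of the 24, the NE ratios lay outside the Ctrl range. As background, 31.8% of all tested partners rose and 30.6% fell by the adjusted p alone. Of all the antisense genes, 14.4% rose and 14.4% fell. The tested partners also had the higher level, with a median of 583 normalized counts against 61.0 for the antisense genes. The part that level played in these counts was not tested.

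MAP3K14-AS1 and MAP3K14 made the pair with the largest difference, and MAP3K14-AS1 was in the set through its NE level. MAP3K14 had 2817, 2669 and 2384 normalized counts in Ctrl and 1252, 1190 and 1047 in NE, a log2 fold change of -1.17 ± 0.11 (adjusted p = 0.000132), while its antisense gene rose. The log2 ratio was -7.23, -6.75 and -7.08 in Ctrl and -4.22, -4.77 and -4.28 in NE, a difference of 2.59 ± 0.32 (adjusted p = 0.00032). MAP3K14-AS1 lies on chromosome 17 from 45247916 to 45269824 on the plus strand, and 16.6% of its exon bases are shared with MAP3K14. It was the one pair in which both genes were called in opposite directions, and the difference was 2.52 after the GC correction.

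SLC25A25 had 295, 284 and 222 normalized counts in Ctrl and 168, 153 and 163 in NE, a log2 fold change of -0.72 ± 0.16 (adjusted p = 0.00516). The log2 ratio of SLC25A25-AS1 to SLC25A25 was -2.29, -2.40 and -3.74 in Ctrl and -0.40, -0.47 and -0.26 in NE, a difference of 2.44 ± 0.39 (adjusted p = 0.00105). Both genes passed the adjusted p, in opposite directions, and 10.4% of the exon bases of the antisense gene are shared. SH3BP5 was not called, at 124, 115 and 88.2 in Ctrl and 80.0, 117 and 115 in NE (log2 fold change -0.07 ± 0.22). The log2 ratio of its pair was -2.37, -1.76 and -3.18 in Ctrl and -0.97, -0.76 and -1.10 in NE, a difference of 1.50 ± 0.42 (adjusted p = 0.0152). This call was lost without NE 2 (1.41) and after the GC correction (1.09). Of the exon bases of SH3BP5, 53.6% are also exon bases of SH3BP5-AS1, so reads there cannot be assigned to one strand.

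STARD4 had 933, 996 and 1463 normalized counts in Ctrl and 1532, 1369 and 1557 in NE, with overlapping groups. Of the exon bases of STARD4-AS1, 1.34% are shared with STARD4, and 24.2% are shared with any gene. The log2 ratio of STARD4-AS1 to STARD4 was -5.80, -6.21 and -6.74 in Ctrl and -4.77, -4.71 and -5.21 in NE, a difference of 1.36 ± 0.37 (adjusted p = 0.0135) that was not called without NE 1 (1.29) or NE 2 (1.26). For SDCBP2-AS1 and SDCBP2, a relative of syntenin, the log2 ratio was 1.69, 1.46 and 2.06 in Ctrl and 3.32, 2.98 and 2.59 in NE, a difference of 1.23 ± 0.45 (adjusted p = 0.0463). It was called with all libraries and without Ctrl 3, and in no fit that left out another library, where it lay between 1.05 and 1.41. After the GC correction it was 0.31. PPP1R26-AS1 to PPP1R26 was -5.67, -5.22 and -6.28 in Ctrl and -4.57, -4.39 and -4.53 in NE, a difference of 1.22 ± 0.34 (adjusted p = 0.0158), and the call was lost without Ctrl 3 (0.95) or NE 2 (1.17) and after the GC correction (0.80).

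SCAMP1-AS1 led the lower ratios. SCAMP1, a carrier protein of secretory vesicles, had 501, 606 and 728 normalized counts in Ctrl and 1552, 1470 and 1310 in NE, a log2 fold change of 1.25 ± 0.15 (adjusted p = 0.000294). SCAMP1-AS1 had 120, 110 and 117 in Ctrl and 63.2, 77.5 and 70.4 in NE, a log2 fold change of -0.71 ± 0.18 (adjusted p = 0.0103). The 2 genes, which share no exon base and start 104 bases apart in GENCODE v44, thus moved apart. The log2 ratio was -2.05, -2.45 and -2.63 in Ctrl and -4.60, -4.23 and -4.20 in NE, a difference of -1.96 ± 0.24 (adjusted p = 0.000348), and -1.498 after the GC correction.

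YTHDF3 encodes a reader of methylated adenosine in RNA. It had 2022, 2048 and 2726 normalized counts in Ctrl and 4426, 4059 and 3673 in NE, and YTHDF3-AS1 had 37.7, 38.4 and 28.4 in Ctrl and 19.8, 15.5 and 14.6 in NE. The partner rose by 0.85 ± 0.14 (adjusted p = 0.00113) and the antisense gene changed by -1.02 ± 0.32 (adjusted p = 0.0263) on the log2 scale, so this pair also moved apart. The call of YTHDF3-AS1 itself was lost without Ctrl 1 (-0.96), Ctrl 2 (-0.95), NE 2 (-0.98) or NE 3 (-0.94). It was also lost after the GC correction (-0.59), with a pseudocount of 5 (-0.88), with no filter on the mean and with the replicate block. The log2 ratio differed by -1.87 ± 0.36 (adjusted p = 0.00279), which the GC correction left uncalled at -0.87. The 2 genes share no exon base, and their starts are 88 bases apart.

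ARHGAP5, a GTPase-activating protein, had 223, 246 and 345 normalized counts in Ctrl and 872, 666 and 656 in NE, and ARHGAP5-AS1 had 32.5, 55.0 and 56.8 in Ctrl and 33.6, 39.7 and 31.1 in NE. Only the partner was called, with a log2 fold change of 1.44 ± 0.19 (adjusted p = 0.00043), and the groups of the antisense gene overlapped. The log2 ratio differed by -1.86 ± 0.31 (adjusted p = 0.00134). RAB30, a small GTPase of the Golgi, had 56.5, 69.5 and 69.6 in Ctrl and 176, 173 and 161 in NE, and RAB30-AS1 had 49.2, 40.4 and 45.1 in Ctrl and 24.7, 45.5 and 35.6 in NE. Again the partner was called (1.37 ± 0.18, adjusted p = 0.000404), the antisense groups overlapped, and the log2 ratio differed by -1.75 ± 0.36 (adjusted p = 0.00345). The ARHGAP5 and RAB30 differences were -1.31 and -1.59 after the GC correction, and both were still called.

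TNRC6C-AS1 and TNRC6C gave log2 ratios of -3.09, -3.19 and -3.32 in Ctrl and -5.82, -4.06 and -5.05 in NE, a difference of -1.78 ± 0.48 (adjusted p = 0.0138). TNRC6C had 337, 283 and 322 normalized counts in Ctrl and 447, 370 and 427 in NE, so the partner was higher and the antisense gene lower in every NE library. KMT2E-AS1 and KMT2E, the gene of a chromatin protein, gave -3.68, -3.42 and -4.48 in Ctrl and -6.33, -5.12 and -5.17 in NE, a difference of -1.68 ± 0.45 (adjusted p = 0.0124). The groups of KMT2E-AS1 itself overlapped, and after the GC correction the difference was -0.60.

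**Figure D3:**
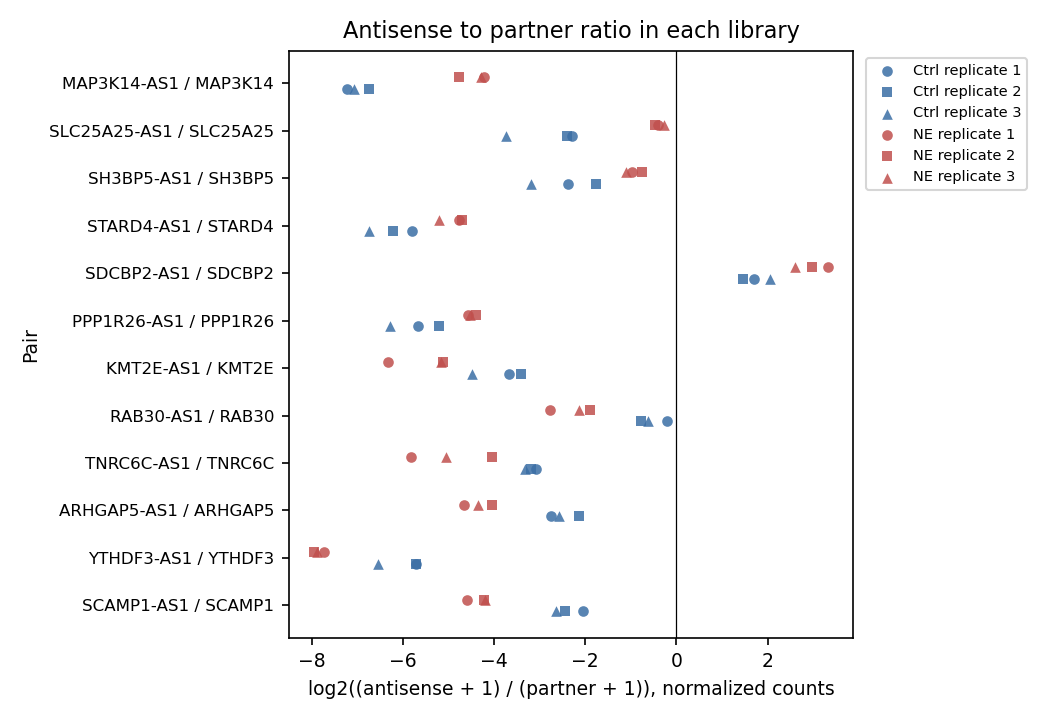
Log2 of the antisense to partner ratio, from normalized counts plus 1, in each of the 6 libraries for the 6 largest rises and the 6 largest falls of the ratio; each mark is 1 library, blue for Ctrl and red for NE. The NE marks lie to the right of all Ctrl marks in the upper 6 rows and to the left in the lower 6, and the ratio of SCAMP1-AS1 moved from between -2.63 and -2.05 to between -4.60 and -4.20.

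Positions from GENCODE v44 on hg38, the build of the deposited table, were found for 194 of the 195 antisense genes. Of these 191 are annotated as long noncoding RNA and 3 as pseudogenes, and 14 now carry a symbol ending in -DT, for a divergent transcript. In 130 the antisense gene shares exon bases with its partner, a median of 6.61% of its own exon bases. In 29 the gene bodies overlap with no shared exon base. In 27 the bodies do not overlap and the starts lie within 1 kb, at a median of 86 bases, all running away from each other, and in 4 the starts lie farther apart.

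Lower ratios were called in each of the 3 larger classes. The class of neighbouring starts had 27 pairs tested, of which 1 was called higher and 7 lower (3.70% and 25.9%, against 4.68% and 11.7% of all 299 pairs), with a median difference of -0.31. In that class 5 partners rose and none fell (18.5%, against 7.47% of all genes tested higher and 6.55% lower). The 121 pairs with shared exon bases had 8 higher and 13 lower (6.61% and 10.7%), with a median of 0.01, and the 20 with overlapping bodies alone had 2 higher and 3 lower (10.0% and 15.0%), with a median of 0.34. The difference between the classes was not tested.

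**Figure D4:**
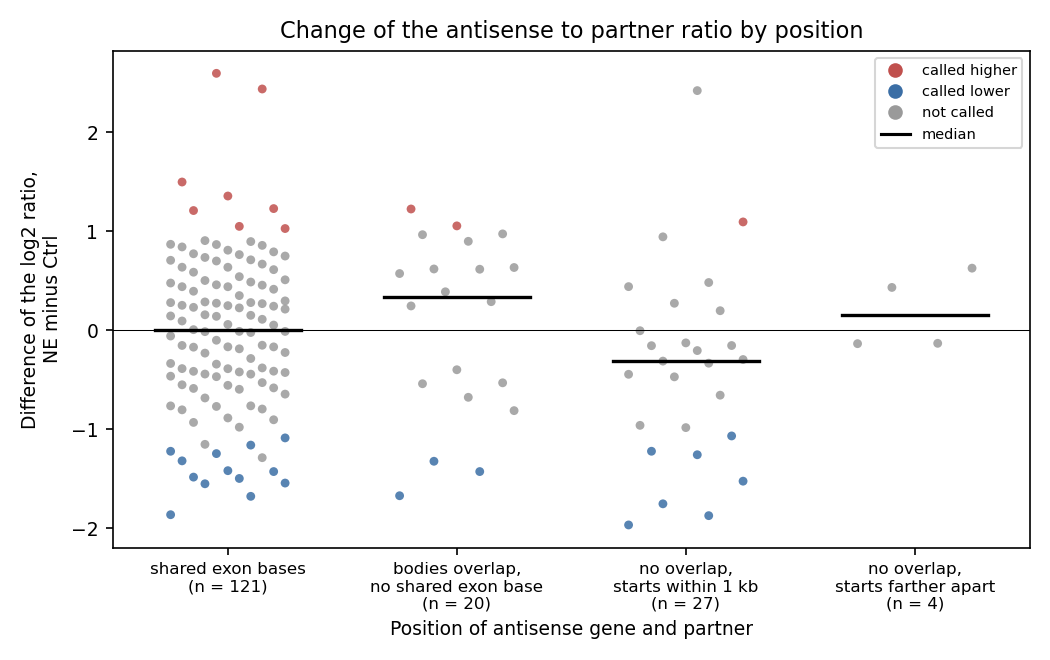
Difference of the log2 antisense to partner ratio (NE minus Ctrl) for each tested pair with both genes placed on hg38, grouped by the position of the 2 genes; points are pairs, red called higher, blue called lower, and the black bar is the median. The median is -0.31 in the 27 pairs whose starts lie within 1 kb and 0.01 in the 121 that share exon bases, and the ranges overlap.

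Per length, most antisense genes whose partner was tested were below that partner. FPKM was recomputed from the recovered reads and the merged exon length, and in Ctrl the antisense genes had a median of 0.842 with a range from 0.0356 to 79.7. Of the 172 tested pairs with both lengths, the antisense gene was above its partner in all 6 libraries in 21, in none in 129 and in some in 22. The median ratio of antisense to partner FPKM was 0.190 in both groups.

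Among these 172 pairs, TRAF3IP2-AS1 stood highest over its partner, an adaptor of interleukin receptor signalling. The FPKM ratio lay between 16.1 and 60.8 in Ctrl and between 5.75 and 10.1 in NE. TRAF3IP2-AS1 had 76.4, 67.4 and 90.2 normalized counts in Ctrl and 60.3, 56.2 and 64.9 in NE, and TRAF3IP2 had 8.38, 8.30 and 2.94 in Ctrl and 11.9, 19.4 and 19.2 in NE. The log2 ratio differed by -1.67 ± 0.62 (adjusted p = 0.0486), a call that was lost without any one of the 6 libraries, between -1.97 and -1.15. LRRC75A-AS1 was 8.60 to 12.3 times its partner per length in Ctrl and 11.6 to 13.7 times in NE, and the groups overlapped. TSPEAR-AS1 was 5.40 to 9.47 times its partner in Ctrl and 1.94 to 3.60 times in NE, with a difference of the log2 ratio of -1.42 ± 0.46 (adjusted p = 0.0297). That call was lost without Ctrl 1 (-1.28), Ctrl 2 (-1.31), NE 1 (-1.49) or NE 2 (-1.17).

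OIP5-AS1 lay near its partner per length. Its FPKM ratio to OIP5, a centromere protein gene, lay between 0.432 and 0.556 in Ctrl and between 0.928 and 1.09 in NE. OIP5 had 317, 262 and 381 normalized counts in Ctrl and 285, 269 and 240 in NE, with overlapping groups. Of the exon bases of OIP5, 63.2% are also exon bases of OIP5-AS1. Reads from these bases cannot be assigned to one strand, so the OIP5 values and the ratio are uncertain. The log2 ratio differed by 1.03 ± 0.17 (adjusted p = 0.00135), and it was no longer called without Ctrl 1 (0.92) or NE 1 (0.98) and after the GC correction (0.78).

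**Figure D5:**
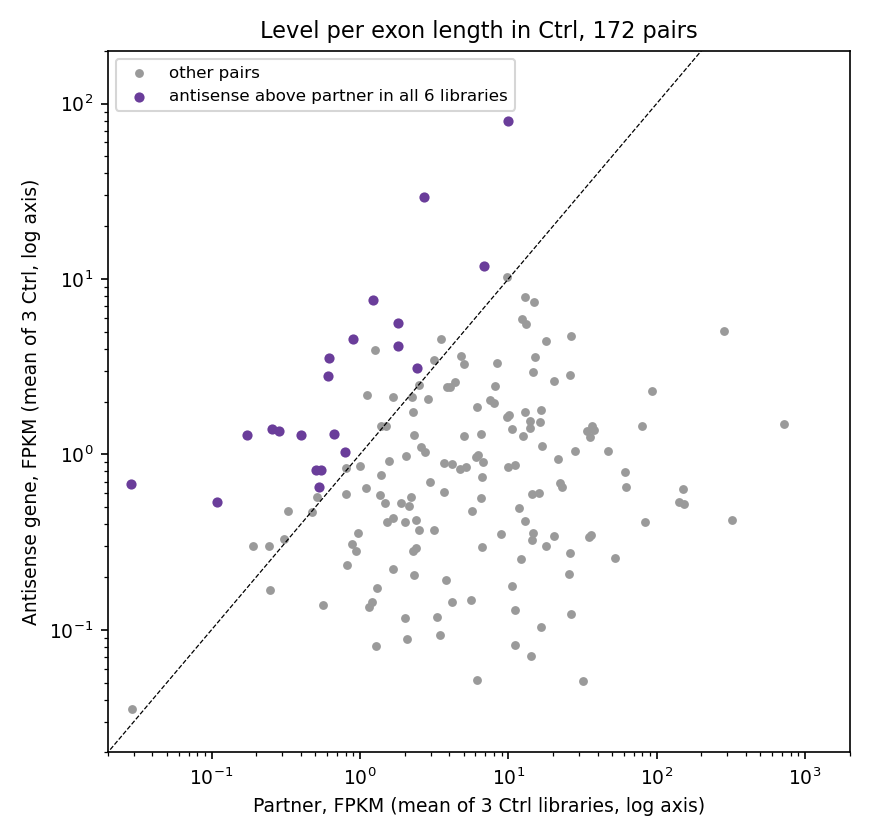
Level per exon length in Ctrl (FPKM, mean of 3 libraries, both axes logarithmic) of the partner on the horizontal axis and of the antisense gene on the vertical axis for 172 pairs, with the line of equal level dashed. The 21 purple points are pairs whose antisense gene is above its partner in all 6 libraries; most grey points lie below the line.

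In 18 pairs the partner had a mean under 10 normalized counts and no ratio was tested. FGD5-AS1 had a mean of 3130 and FGD5 a mean of 0.969, and NUTM2A-AS1 had 518 and NUTM2A 0.830. DLGAP1-AS1, which lies wholly within introns of DLGAP1, a gene of a postsynaptic scaffold protein, had 217, 218 and 121 in Ctrl and 393, 427 and 482 in NE, and its rise fell under the limit without Ctrl 3. DLGAP1 itself was at 0 in all 3 Ctrl libraries and at 5.93, 0.969 and 7.31 in NE. NDUFV2, a gene of respiratory complex I, was also low, with a mean of 6.81, and it is named after its value was seen. A partner near 0 in this table was therefore not read as a silent gene, and the cause was not tested.

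Genes named for other antisense, intronic, overlapping or divergent transcripts, with endings such as -AS2, -DT and -IT1, were read by the same rule. Of 42 with a mean of at least 20, 3 rose and 1 fell (7.14% and 2.38%), and their median log2 fold change was -0.19. The 83 genes named -AS1 with a mean from 10 to under 20 had 6 rises and 3 falls (7.23% and 3.61%). The background was 7.47% and 6.55% among all genes tested, so the falls took a smaller share in both sets, a difference that was not tested.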

How the data were processed

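RNA of 6 NCI-H1299 libraries was sequenced by the study, 3 Ctrl and 3 NE, grouped by the sample labels. The submitters' processing notes name HISAT2 2.0.5, featureCounts 1.5.0-p3 and hg38; the annotation and strand setting are not given in the sources used here. The signal values the authors deposited are counts per gene scaled by 1 factor for each library, although their methods describe FPKM. In each library 100% of values were whole multiples of the value of 1 read (0.914 to 1.05, tolerance 0.01), which gave the recovered reads.

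The log2(value + 1) of 15013 genes with a mean of at least 10 was fitted with limma 3.58.1 (lmFit, eBayes with trend) in R 4.3.3. P-values were adjusted by Benjamini-Hochberg over all genes. A call needed an adjusted p below 0.05 and a log2 fold change of 1 or more in size. The added 1 pulls the log2 fold changes of low genes toward 0, but this does not make them smaller than in every other fit. RNF139-AS1 was at 2.62 here and 2.02 by DESeq2, and TM4SF1-AS1 was at 1.79 here and 1.89 by DESeq2. Pair ratios, log2((antisense + 1)/(partner + 1)), were tested with a variance moderated to the sum of both genes' limma priors, and adjusted together with all gene tests. Alternatives were pseudocounts, filters, TMM and quantile scaling, edgeR 4.0.16, DESeq2 1.42.0 and voom on recovered reads, a replicate block, a GC spline of 5 degrees of freedom on exons of GENCODE v44, and each library left out. The scripts were tested on simulated data. With 3 libraries per group an exact permutation test cannot go below 0.1, and reads without molecular identifiers carry more than counting error.

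The members and lists were chosen with earlier results of these data known. Named genes were the 10 largest rises and falls among called members whose groups did not overlap, the 5 of highest mean, the 3 on each side of the limit, the 6 largest called ratio changes each way, pairs with both genes called, and 3 pairs with the antisense gene above its partner per length. Some genes are not reported here.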

Additional observations from a re-analysis of the deposited data

How the results depend on the processing

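Counts of calls moved with several settings, and the cause was not tested. With a pseudocount of 5 and with no filter on the mean, 7 antisense genes were lower; no filter also gave medians of 0.16 for partners and -0.13 for pair ratios. A minimum mean of 50 left 7 antisense genes higher, 3 lower, 4 ratios higher and 7 lower, since fewer genes were tested, and a member limit of 50 found 112 antisense genes. Quantile normalization gave a member median of -0.12. The GC correction gave 9 antisense genes higher, a median of -0.0822, 9 partners higher and 4 lower, and 7 ratios higher and 14 lower. With no fold criterion 28 antisense genes were higher and 28 lower, 55 partners higher and 53 lower, and 23 ratios higher. Tests on recovered reads called 14 antisense genes higher and 11 lower (edgeR), 15 and 11 (DESeq2), and 16 and 12 (voom).

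Leaving out 1 library gave 10 to 15 antisense genes higher and 7 to 17 lower (median -0.0839 to 0.0317), 12 to 23 partners higher and 9 to 14 lower (median 0.0296 to 0.197), and 6 to 16 ratios higher and 13 to 36 lower (median -0.128 to 0.0223).

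The replicate block gave 15 antisense genes higher and 8 lower, and 8 ratios higher and 18 lower. Deviations of same-numbered libraries from their group means correlated at -0.16, 0.08 and -0.15 across genes. With so few libraries per group, these values cannot show whether same-numbered libraries were handled together.

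Signs turned in values that were not called. The GATA6 pair was 0.10 with a pseudocount of 5, 0.0039 by edgeR, 0.0014 by DESeq2, 0.0536 after the GC correction and -0.23 to 0.11 with 1 library left out. The PXN pair was -0.11 with quantile normalization and -0.11 after the GC correction. The GC correction also gave -0.0309 (LRRC75A pair), 0.11 (DENND5B pair), 0.00858 (TP73-AS1), -0.23 (SDCBP2-AS1) and 0.18 (TSPEAR-AS1). With 1 library left out the SLC9A3 pair ran from -1.57 to 0.25 and the SOCS2 pair from -0.44 to 0.12. Of the values of named genes and pairs under all alternatives, 1010 kept their direction and their side of the threshold, 100 lost a call, 17 gained one and 18 changed sign. Depth limits most of these genes: at a median of 61.0 normalized counts, small differences were not detectable.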
